A study of Mus musculus with 12 samples.

Results

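The calcium release unit of heart muscle was described through 8 genes, chosen by symbol as Hrc and the partners of the ryanodine receptor: Ryr2, Fkbp1b, Hrc, Casq2, Trdn, Asph, Jph2 and Jph1. All 8 of these symbols were found among the 17379 genes of the deposited table, and all 8 passed the filter on low counts. The study measured mRNA by sequencing in 12 mouse hearts, 3 in each of 4 groups, all taken at an age of 6 months. Compound mice carried the HRC variant S96A in the heterozygous state together with a homozygous MYBPC3 deletion of 25 bp. HRC variant mice carried S96A alone (heterozygous), and MYBPC3 deletion mice carried the deletion alone (homozygous). The nontransgenic mice were C57BL/WT. The compound and HRC variant hearts were all female, while the MYBPC3 deletion and the nontransgenic hearts were 2 male and 1 female each. The labels give C57BL as the background of all groups and call the carriers transgenic, without saying whether an allele is an edited mouse gene or an added copy, which promoter drives it or how many lines were used. Nothing in the labels pairs or pools the mice, so each library was treated as 1 independent sample. P-values of the group comparisons set a difference against the spread between libraries that group and sex leave, which may in part be technical.

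Each heartbeat starts when calcium entering the muscle cell opens ryanodine receptors, which release the much larger calcium store of the sarcoplasmic reticulum. Ryr2 encodes this release channel. Inside the reticulum, calsequestrin (Casq2) and the histidine-rich calcium-binding protein (Hrc) bind calcium, and triadin (Trdn) and junctin (a product of Asph) hold these luminal proteins close to the channel. Junctophilins (Jph2 in heart, Jph1 mainly in skeletal muscle) span the gap between the cell membrane and the reticulum, and the immunophilin encoded by Fkbp1b binds the channel from the cytosol.

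The stretch of Hrc around the residue number of the variant is shown first, since the labels name the altered residue and not the species whose numbering they follow. In the mouse transcript Hrc-201 (GENCODE M21, GRCm38), codons 76 to 100 lie in exon 1 at chr7:45335652-45335726 on the plus strand. Capitals mark codon 81, a serine codon, and codon 96, an arginine codon.
Hrc codons 76 to 100: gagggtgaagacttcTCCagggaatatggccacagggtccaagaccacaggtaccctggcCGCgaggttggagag
Codon 81 is the nearest serine codon before codon 96 and the residue 2 places after it is glutamate, as it is at 26 serines among the 738 codons of Hrc. S96A is known as background from the human HRC gene. The labels do not give the matching mouse residue, and counts per gene cannot show it.

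Promoter windows were available for 5 of the 8 genes (RefSeq, GRCm38.p6, 250 bases before the start site and 50 after it): Hrc, Casq2, Jph2, Ryr2 and Fkbp1b. Those of Ryr2 and Jph2 are shown because the levels of these genes moved together across hearts, and that of Hrc because it is the altered gene. Capitals mark CAGCTG, an E-box motif that reads the same on both strands.
Ryr2, chr13:12106896-12107195, minus strand: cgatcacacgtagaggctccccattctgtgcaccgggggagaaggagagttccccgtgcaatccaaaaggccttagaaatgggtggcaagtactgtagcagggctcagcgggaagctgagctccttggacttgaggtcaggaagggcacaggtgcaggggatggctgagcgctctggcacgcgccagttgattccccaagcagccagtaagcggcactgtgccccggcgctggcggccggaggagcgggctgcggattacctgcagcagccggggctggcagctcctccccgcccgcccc
Jph2, chr2:163397944-163398243, minus strand: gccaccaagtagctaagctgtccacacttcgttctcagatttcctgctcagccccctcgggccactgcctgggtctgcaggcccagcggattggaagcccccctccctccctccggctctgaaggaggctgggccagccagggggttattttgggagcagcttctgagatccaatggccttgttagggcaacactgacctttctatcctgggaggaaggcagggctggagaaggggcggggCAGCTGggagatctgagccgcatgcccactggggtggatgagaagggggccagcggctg
Hrc, chr7:45335019-45335318, plus strand: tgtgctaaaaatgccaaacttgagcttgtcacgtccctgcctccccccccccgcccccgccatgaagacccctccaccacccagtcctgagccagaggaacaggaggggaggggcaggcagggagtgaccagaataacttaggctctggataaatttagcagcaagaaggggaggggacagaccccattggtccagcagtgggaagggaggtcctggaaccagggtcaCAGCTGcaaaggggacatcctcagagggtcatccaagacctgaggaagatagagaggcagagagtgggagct
CAGCTG stood in the windows of Hrc (first base at -22 from the start site) and Jph2 (at -9 in the window shown, at -29 in a second listed window). It stood in no window of Ryr2, Casq2 or Fkbp1b. Over all promoters, 16.3% of 32851 windows of the same length held it. A match to the MEF2 motif was found in the Casq2 window only (first base at -69), against 3.2% of all windows. On either strand, no window of these genes held TATAAA (13.6% of all windows), AGATAA (11.2%) or a CArG box (1.6%). These matches describe letters and carry no test.

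Total counts ranged from 15615182 to 20581197 per library. Mybpc3, which encodes cardiac myosin-binding protein C, had 3532, 3658 and 3923 CPM (counts scaled to the library's total after adjustment by edgeR's TMM factor) in compound hearts, 2897, 3297 and 3848 in HRC variant hearts, 2464, 2918 and 2532 in MYBPC3 deletion hearts, and 4885, 3521 and 3630 in nontransgenic hearts. It was lower in each MYBPC3 deletion heart than in each nontransgenic heart, with a log2 difference of -0.60 (SE 0.16; edgeR adjusted p = 0.357, DESeq2 adjusted p = 0.0253). It had a log2 difference of -0.01 (SE 0.20; edgeR adjusted p = 0.999) between compound hearts, which carry the same deletion by label, and nontransgenic hearts. The interaction of both alterations on Mybpc3 was 0.75 on the log2 scale (SE 0.23; edgeR adjusted p = 0.517, DESeq2 adjusted p = 0.0489). Between compound and MYBPC3 deletion hearts it had a log2 difference of 0.59 (SE 0.20; edgeR adjusted p = 0.862, DESeq2 adjusted p = 0.245), and the authors' deposited table gives log2 0.51 with q = 0.00128 for the same pair. Mybpc3 CPM was thus higher in each compound heart than in each MYBPC3 deletion heart, though both groups are labelled homozygous for the same deletion. Between these groups the difference passed only by the authors' q-value, and the groups also differ in sex. What it says of the labels was not tested. Whether the altered alleles yield less counted RNA is not given in the labels, and gene counts cannot show a single-residue variant of Hrc. Summed over 10 heart muscle markers, CPM ran from 80377 to 90038 in compound hearts, 77231 to 88321 in HRC variant hearts, 71022 to 84872 in MYBPC3 deletion hearts and 76421 to 107709 in nontransgenic hearts, ranges that overlap. The 9 atrial markers summed to 205 to 505 CPM in compound hearts, 258 to 9161 in HRC variant hearts, with 1 heart at the low end, 3760.5 to 6536 in MYBPC3 deletion hearts and 3672 to 9332 in nontransgenic hearts. None of the atrial markers was at 0 in every heart. With the atrial level as a term in the model no member was called in any comparison, though several differences changed size or sign. Some of these are given with Ryr2, Fkbp1b, Hrc, Casq2 and Jph2 below, and not all are listed. Jph1 went from a log2 difference of 0.05 to -0.12 between compound and MYBPC3 deletion hearts. Jph2 went from -0.14 to -0.43 between compound and nontransgenic hearts. Every compound heart lay below every MYBPC3 deletion and nontransgenic heart in the atrial sums. In those comparisons the compound genotype and the atrial level therefore cannot be told apart, with or without the term. In bulk tissue such as this, fewer cells of a type and less RNA per cell cannot be told apart.

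Levels per length were compared in the deposited TPM, which scales counts by gene length and by library. Hrc stood first, with 560 TPM in the lowest, 812 in the median and 936 in the highest heart. Casq2 followed with 526, 712 and 809 TPM. These transcripts for calcium-binding proteins of the lumen stood at rank 194 for Hrc and 235 for Casq2 among all genes by mean TPM. Hrc was above Casq2 in 11 of 12 hearts, though their ranges overlap.

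Jph2 had 104, 230.2 and 281 TPM in the lowest, median and highest heart. Asph had 95.4, 127 and 156 TPM, Trdn had 104, 119.7 and 138 TPM, and Ryr2 had 54.1, 117 and 158 TPM. The order of Asph, Trdn and Ryr2 does not go beyond their spread, since their ranges overlap and Asph was above Trdn in 8 of 12 hearts and Trdn above Ryr2 in 5. Jph1 lay far below, at 6.32, 11.3 and 13.8 TPM, and Fkbp1b lowest, at 1.53, 3.16 and 4.82 TPM. With counts divided by the union of GENCODE exons instead, a choice made after seeing the data, the first 3 and the last 2 places were the same, while Ryr2 took place 4 and Asph place 6. The Asph gene also encodes an aspartyl hydroxylase and other products, and the gene-level count does not separate junctin from them.

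**Figure D1:**
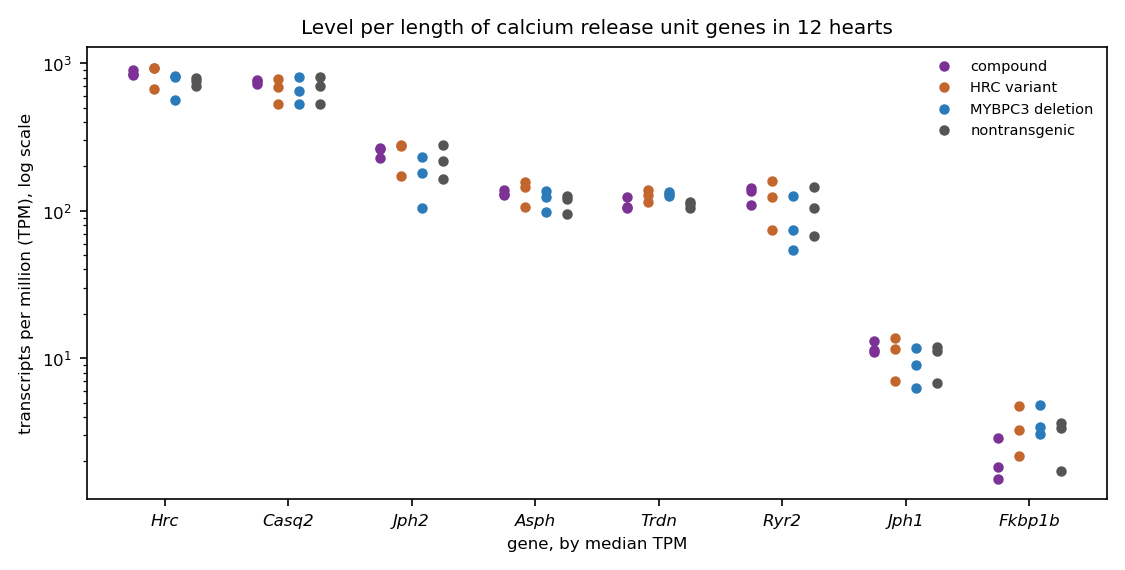
Deposited TPM on a log scale for each of the 8 genes in each of 12 hearts, genes ordered by median TPM; each point is 1 heart and colours are the 4 groups, with compound at the left and nontransgenic at the right of each gene. Hrc and Casq2 lie at 526 TPM or above in every heart, and Fkbp1b at 4.82 TPM or below.

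Ryr2 (gene 20191; GRCm38.p6 chromosome 13, 11553099 to 12108324) did not pass the test between any genotypes. Its level was 1327, 1103 and 1381 CPM in compound hearts, 747, 1437 and 1256 in HRC variant hearts, 777, 666 and 1159 in MYBPC3 deletion hearts, and 855, 997 and 1389 in nontransgenic hearts. The groups overlap, and in both groups with males the single female heart was the highest. The group means were 1271 ± 147 CPM in compound hearts, 1147 ± 358 with the HRC variant, 867 ± 259 with the MYBPC3 deletion and 1080 ± 276 in nontransgenic hearts (SD, n = 3 each). With sex in the model, the log2 difference from nontransgenic hearts was -0.16 (SE 0.25) in compound hearts, -0.31 (SE 0.25) with the HRC variant and -0.33 (SE 0.21) with the MYBPC3 deletion. The edgeR adjusted p-values were 0.983, 0.926 and 0.723. The sign for both groups with the HRC variant goes against their higher means: the model sets these female hearts against an estimated female level of the nontransgenic group, whose only female heart had 1389 CPM. With the atrial level as a term, the compound difference was -0.32 (SE 0.34). Ryr2 was 1 of the 3 members, with Jph1 and Fkbp1b, that the deposited table places on the plus strand and GENCODE on the minus strand, as it does for 15.2% of the genes compared. The sources used here do not say whether counting used strand, so that reads of genes on the opposite strand cannot be told apart from theirs.

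Fkbp1b (gene 14226; chromosome 12, 4833174 to 4841605), whose product binds the channel, gave few reads. It had 13, 13 and 27 reads in compound hearts, 45, 18 and 22 in HRC variant hearts, 24, 51 and 30 in MYBPC3 deletion hearts, and 20, 28 and 35 in nontransgenic hearts. The lowest and the highest of these counts have exact Poisson intervals of 6.92 to 22.2 and 38.0 to 67.1 reads (95%), which cover counting error only. The highest compound heart had 1.51 CPM and the lowest MYBPC3 deletion heart 1.52 CPM, so these groups met without overlapping, and the log2 difference between them of -1.03 (95% interval -2.38 to 0.32) did not pass the test (adjusted p = 0.905). With the atrial level as a term it was -0.53 (SE 0.79). Its close relative Fkbp1a, which also binds ryanodine receptors, had 55.4 to 165 times the TPM of Fkbp1b across the 12 hearts, with a median ratio of 81.3.

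Hrc (gene 15464; chromosome 7, 45335269 to 45338973, plus strand), the gene whose protein carries the variant, did not pass the test in any comparison. It had 1156, 1169.8 and 1229 CPM in compound hearts, 956, 1199.7 and 1330.4 in HRC variant hearts, 1199, 974 and 1072 in MYBPC3 deletion hearts, and 1375, 939 and 1074 in nontransgenic hearts. The compound values are the closest together, and they lie inside the range of every other group except that of the MYBPC3 deletion, whose highest value is below 1 of them. Over both backgrounds, carriers of the HRC variant differed from non-carriers by a log2 value of 0.13 (95% interval -0.24 to 0.50; adjusted p = 0.9999). With the atrial level as a term this value was -0.11 (SE 0.19). That of compound against nontransgenic hearts was -0.21 (SE 0.24), against 0.11 (SE 0.21) without the term. The sign of both depends on the term, and atrial level cannot be told apart from the compound genotype in these hearts. The 95% interval for HRC variant against nontransgenic hearts was -0.37 to 0.54. This interval is not a limit of detection, which was not computed for Hrc.

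Casq2 (gene 12373; chromosome 3, 102086339 to 102162632, plus strand), the main calcium buffer of the store, had 1029, 1132 and 1067 CPM in compound hearts, 784, 912 and 1152 in HRC variant hearts, 999, 947 and 1088 in MYBPC3 deletion hearts, and 987, 1126 and 982 in nontransgenic hearts. The lowest 2 values both belong to the HRC variant group, which also held the highest value of all. The log2 difference between HRC variant and nontransgenic hearts was -0.14 (SE 0.19; adjusted p = 0.972), and between compound and HRC variant hearts 0.18 (SE 0.15; adjusted p = 0.925). With the atrial level as a term these were -0.29 (SE 0.18) and 0.03 (SE 0.15), and compound against nontransgenic hearts was -0.26 (SE 0.22), against 0.04 without the term. The gene model of Casq2 in the deposited table ends 16118 bp beyond that of RefSeq. The ratio of Hrc to Casq2 TPM ranged from 1.07 to 1.19 in compound hearts, 1.20 to 1.36 with the HRC variant, 1.02 to 1.24 with the MYBPC3 deletion and 0.864 to 1.44 in nontransgenic hearts, so all groups lie inside the nontransgenic range, while the compound and HRC variant ranges did not overlap.

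Trdn (gene 76757, chromosome 10, 33083409 to 33476709, plus strand) encodes the anchor that links calsequestrin to the channel. Under the deletion, Trdn lay on opposite sides of the mean of its comparison group, with and without the HRC variant. It had 273, 278 and 319.9 CPM in compound hearts, 344, 333 and 306 in HRC variant hearts, 354, 439.7 and 319 in MYBPC3 deletion hearts, and 389, 262 and 283 in nontransgenic hearts. Compound hearts overlap with the HRC variant group at 1 heart, and all 3 lie below the mean of that group (327 CPM). All 3 hearts with the deletion alone lie above the nontransgenic mean (311 CPM), though nontransgenic replicate 1 (389 CPM) lies above MYBPC3 deletion replicates 1 and 3. The log2 difference was -0.17 (SE 0.15) between compound and HRC variant hearts and 0.25 (SE 0.15) between MYBPC3 deletion and nontransgenic hearts, and neither passed the test (adjusted p = 0.930 and 0.723). The interaction term, the effect of the deletion with the variant minus that without it, was -0.42 (SE 0.22; adjusted p = 0.634). Without nontransgenic replicate 2 it was -0.25, and the deletion difference was 0.08. Without nontransgenic replicate 1 the deletion difference was 0.41, and without MYBPC3 deletion replicate 2, the highest heart, it was 0.14.

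Asph (gene 65973; chromosome 4, 9449085 to 9669344, minus strand) had the smallest coefficient of variation of the 8 genes in CPM, though not in TPM. It had 199.5, 198 and 217 CPM in compound hearts, 178, 233 and 225 in HRC variant hearts, 202, 177 and 211 in MYBPC3 deletion hearts, and 183, 205 and 209 in nontransgenic hearts. The coefficient of variation over all 12 hearts was 8.72% for Asph, against 10.4% for Casq2, 12.4% for Hrc, 16.0% for Trdn, 17.8% for Jph1, 20.3% for Jph2, 25.4% for Ryr2 and 46.1% for Fkbp1b. In TPM it was 14.7% for Asph and was lower for both Trdn and Hrc. Its log2 difference from nontransgenic hearts was -0.05, 0.00 and -0.02 in compound, HRC variant and MYBPC3 deletion hearts, each within 1 SE of 0 (adjusted p from 0.989 to 1.00).

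Jph2 (gene 59091; chromosome 2, 163336242 to 163398049, minus strand), the junctophilin of heart muscle, had the smallest unadjusted p of the 8 genes in the comparisons of genotypes, for the deletion against nontransgenic hearts. It had 634, 562 and 633 CPM in compound hearts, 429, 619 and 702 in HRC variant hearts, 469, 312 and 532 in MYBPC3 deletion hearts, and 512, 509.5 and 663 in nontransgenic hearts. All 3 compound hearts were above all 3 hearts with the deletion alone, and 2 of the 3 deletion hearts were below all nontransgenic hearts. The log2 difference between MYBPC3 deletion and nontransgenic hearts was -0.36 (SE 0.19; edgeR adjusted p = 0.648, DESeq2 adjusted p = 0.522), and between compound and MYBPC3 deletion hearts 0.22 (SE 0.23; adjusted p = 0.960). With the atrial level as a term the second was -0.07 (SE 0.29). The authors' deposited table gives log2 0.49 with q = 0.129 for Jph2 and log2 0.57 with q = 0.0926 for Ryr2 in compound over MYBPC3 deletion hearts, the 2 smallest q-values of the 8 genes in any of its comparisons, and these groups also differ in sex.

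Jph1 (gene 57339; chromosome 1, 16898185 to 17097904) had 26.4, 26.4 and 30.5 CPM in compound hearts, 16.9, 30.5 and 28.6 in HRC variant hearts, 23.6, 19.2 and 26.8 in MYBPC3 deletion hearts, and 19.8, 25.7 and 28.6 in nontransgenic hearts. The lowest value belonged to the same HRC variant heart that was lowest of its group for Ryr2, Jph2, Asph, Casq2 and Hrc. Per length, Jph2 exceeded Jph1 by 16.4 to 24.4 times, with medians of 20.2 in compound hearts, 24.3 with the HRC variant, 19.9 with the MYBPC3 deletion and 23.4 in nontransgenic hearts. The gene model of Jph1 in the deposited table starts 43919 bp before that of RefSeq.

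**Figure D2:**
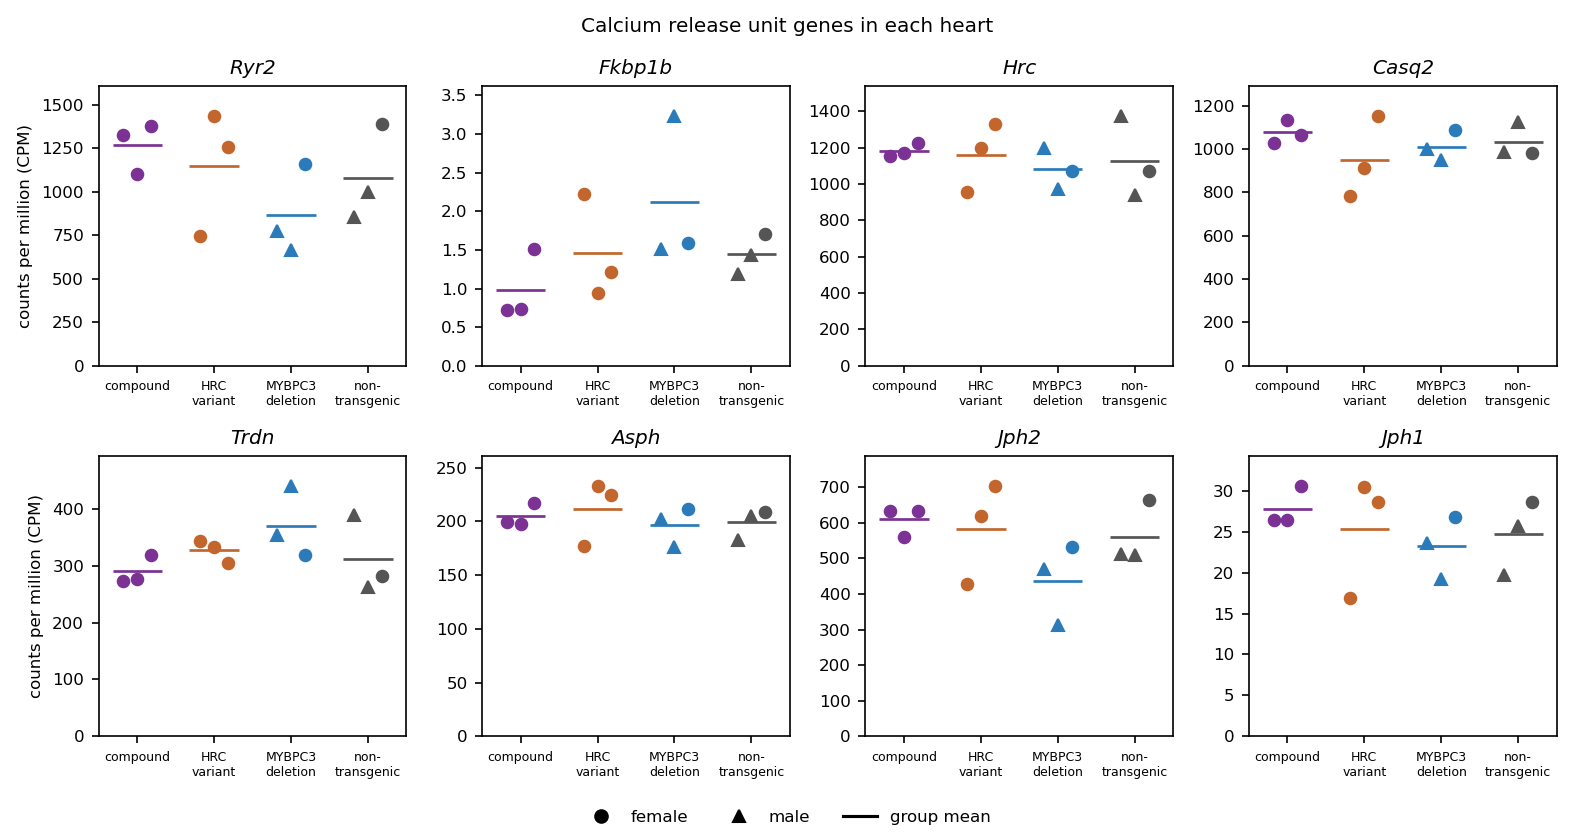
CPM of each gene in each heart, with groups from compound at the left to nontransgenic at the right; circles are female and triangles male hearts, and bars are group means of 3 hearts. No group stands apart from the other 3 for any gene, and Ryr2 is at 997 CPM or below in all 4 male hearts.

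Across the comparisons of genotypes, no member was called at an edgeR adjusted p under 0.05. For compound against nontransgenic hearts this was 0 of 8 members, beside 0% of 13849 genes, while 881 genes and 0 of the 8 members had an unadjusted p under 0.05. DESeq2 called 38 genes and limma-voom none in that comparison, and neither called a member. For HRC variant against nontransgenic hearts the count was 0 of 8 beside 0% of all genes, with 863 genes and no member at an unadjusted p under 0.05 and 25 genes called by DESeq2. For MYBPC3 deletion against nontransgenic hearts it was 0 of 8 beside 0% of all genes, with 1130 genes and no member at an unadjusted p under 0.05 and 76 genes called by DESeq2. DESeq2 gave Jph2 an unadjusted p of 0.0467 in that comparison, the only member under 0.05 between genotypes by that tool, and neither DESeq2 nor limma-voom called a member or limma-voom a gene. Their median log2 difference was -0.04, -0.07 and -0.05 in the same order, beside -0.0019, 0.0047 and -0.0050 over all genes.

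The compound hearts were also set against each single alteration. Against MYBPC3 deletion hearts, 0 of 8 members were called beside 0% of all genes (794 genes and no member at an unadjusted p under 0.05; 6 genes called by DESeq2). Against HRC variant hearts, 0 of 8 were called beside 0% of all genes (872 and no member; 43 by DESeq2). For carriers of the HRC variant against non-carriers, and for carriers of the deletion against non-carriers, 0 of 8 were called beside 0% of all genes in each (682 and 856 genes and no member at an unadjusted p under 0.05; 16 and 13 by DESeq2). For the interaction, 0 of 8 were called beside 0% of all genes (1183 and no member; 50 by DESeq2). Limma-voom called no gene in any of these 5 comparisons, and neither DESeq2 nor limma-voom called a member.

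The size of change that these hearts allow differs by gene. For the 7 members other than Fkbp1b, 95% intervals of the log2 difference from nontransgenic hearts ran between -0.85 (Ryr2, HRC variant) and 0.66 (Trdn, HRC variant). For Fkbp1b they ran between -1.79 (compound) and 1.62 (MYBPC3 deletion). In the interaction, Ryr2 had 0.47 (95% interval -0.15 to 1.10) and Jph2 0.43 (-0.14 to 1.00), both positive, and Fkbp1b -1.10 (-2.65 to 0.45), with adjusted p-values of 0.675, 0.677 and 0.694. Without the 4 libraries whose level fell with gene length, left out after the data were seen, these were 0.16, 0.19 and -0.05. The same 4 libraries held the lowest Ryr2 values, at 855 CPM or below, so the choice was tied to the level of Ryr2 itself. It also left 1 heart in the MYBPC3 deletion group, and no conclusion is drawn from it.

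**Figure D3:**
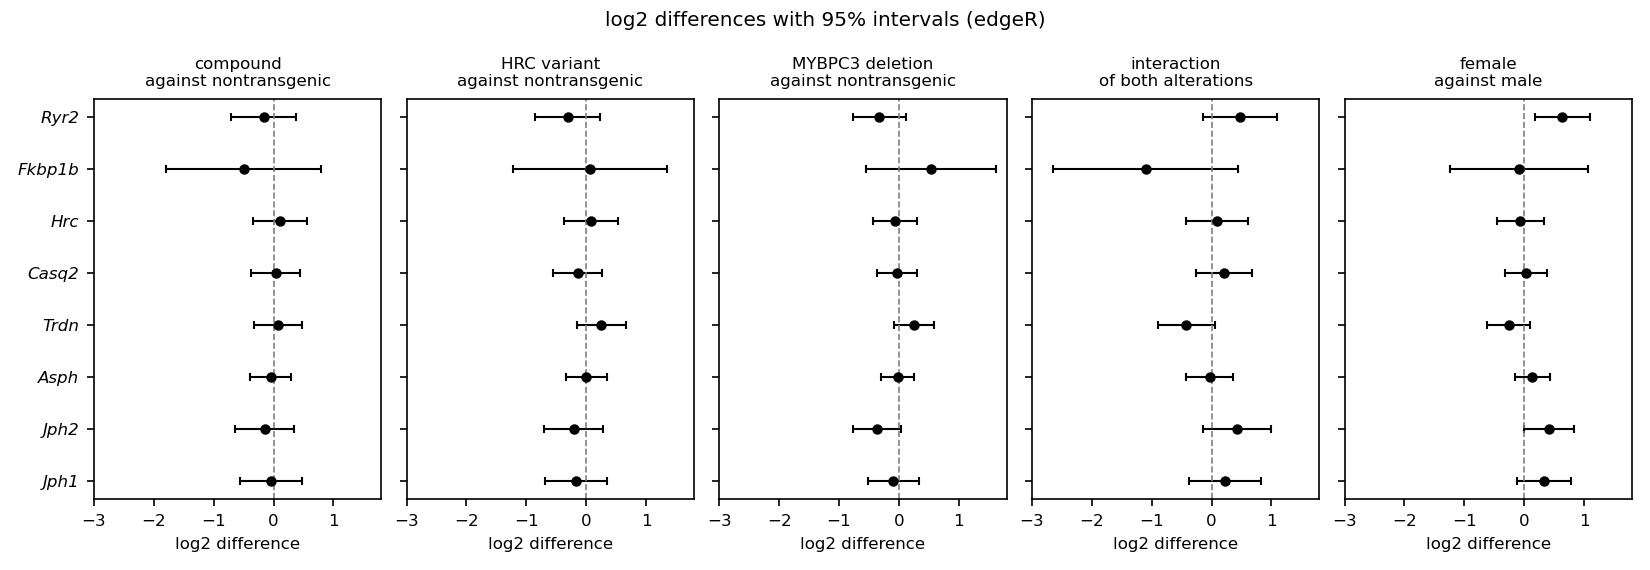
Fitted log2 differences (points) with 95% intervals (bars) for the 8 genes in 5 contrasts, with sex in the model; the dashed line marks 0. Of the intervals drawn, only that of Ryr2 in females against males leaves out 0, from 0.17 to 1.09.

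Females were compared with males through the 2 groups that held both. Ryr2 was the member that differed most: it had 747 CPM in the lowest, 1292 in the median and 1437 in the highest of 8 female hearts, and 666, 816 and 997 CPM in the lowest, median and highest of 4 male hearts. The 8 females include all compound and HRC variant hearts, groups without males, so these pooled values mix genotype with sex. Within the MYBPC3 deletion group the female heart had 1159 and the males 777 and 666 CPM, and within the nontransgenic group the female heart had 1389 and the males 855 and 997 CPM. Its log2 difference was 0.63 (95% interval 0.17 to 1.09, SE 0.21; unadjusted p = 0.0106 in edgeR), which did not pass after adjustment over all genes (edgeR adjusted p = 0.312, DESeq2 adjusted p = 0.0810). Jph2 had 0.41 (SE 0.19; adjusted p = 0.354) and Jph1 0.33 (SE 0.21; adjusted p = 0.468), while Trdn had -0.26 (SE 0.17; adjusted p = 0.470) and Hrc -0.06 (SE 0.18; adjusted p = 0.892). No member was called (0 of 8), beside 0.0578% of all genes (8 genes). An unadjusted p under 0.05 was found for 1 of 8 members and 1975 genes. DESeq2 called 54 genes, limma-voom 5, and neither a member. In these groups the contrast rests on 1 female heart each.

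A further difference between libraries moved with Ryr2 and the junctophilins. In each library, deviations of log2 CPM from the gene's mean were set against relative transcript length, taken from the ratio of each gene's deposited count to its TPM. The slope per doubling of length was 0.09, 0.03 and 0.10 in compound hearts, -0.06, 0.14 and 0.04 in HRC variant hearts, -0.09, -0.24 and 0.06 in MYBPC3 deletion hearts, and -0.17, 0.04 and 0.07 in nontransgenic hearts. It was negative in 3 of 4 male libraries and in 1 of 8 female ones, the HRC variant heart with the low Ryr2 value. Ryr2 is one of the longest transcripts, at the 99.9th percentile of relative length, while Jph2 and Jph1 lie at the 72.9th and 72.2nd, Trdn at the 76.8th, Asph at the 46.5th, Casq2 at the 40.9th, Hrc at the 39.0th and Fkbp1b at the 4.29th.

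Over the 12 hearts, Ryr2 rose with this slope (Pearson r = 0.91, permutation p = 0.0001; Spearman rho = 0.92, permutation p = 0.0001; Benjamini-Hochberg adjusted p = 0.0008 for both, over 8 genes), and r was 0.94 without the 2 libraries farthest from the median slope. For a transcript as long as Ryr2, such a rise follows in part from how the slope is defined. The length trend fitted over all genes spanned -0.39 to 0.33 on the log2 scale at its length, against -0.03 to 0.04 at that of Asph. At the lengths of Jph2, Jph1 and Trdn that trend spanned -0.19 to 0.09, -0.18 to 0.09 and -0.21 to 0.11. A rise of Jph2 or Jph1 thus also follows in part from how the slope is defined. The p-values of Ryr2 are therefore no result about this gene, and those of Jph1 and Jph2 are not free of the definition either. The share of all genes that follow the slope was not computed, so these p-values set no gene apart from others of its length. Asph (r = 0.82, rho = 0.76), Jph1 (r = 0.84, rho = 0.83) and Jph2 (r = 0.82, rho = 0.69) also rose with the slope. Their permutation p-values for r were 0.0012, 0.00182 and 0.00122, adjusted to 0.00325, 0.00362 and 0.00325. Those for rho were adjusted to 0.015, 0.00496 and 0.0331 by permutation, and r was 0.67, 0.78 and 0.75 without those libraries. Trdn ran the other way (r = -0.79, permutation p = 0.00226, adjusted permutation p = 0.00362), but its rank correlation did not pass (rho = -0.55, adjusted p = 0.113 by permutation) and r was -0.40 without the 2 farthest libraries, so that the relation rests on them. Hrc (r = 0.11, adjusted permutation p = 0.744) and Casq2 (r = 0.31, adjusted permutation p = 0.363) showed no relation past the threshold. Within groups, r of residuals from the group means was 0.88 for Ryr2, 0.85 for Asph and Jph1, 0.77 for Jph2, -0.78 for Trdn and -0.07 for Hrc. With the length trend taken out of the counts, the log2 difference of Ryr2 was 0.32 (SE 0.16; adjusted p = 0.580) between females and males and -0.10 (SE 0.16; adjusted p = 0.897) between MYBPC3 deletion and nontransgenic hearts, while that of Jph2 in the second comparison was -0.32 (SE 0.17; adjusted p = 0.617).

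**Figure D4:**
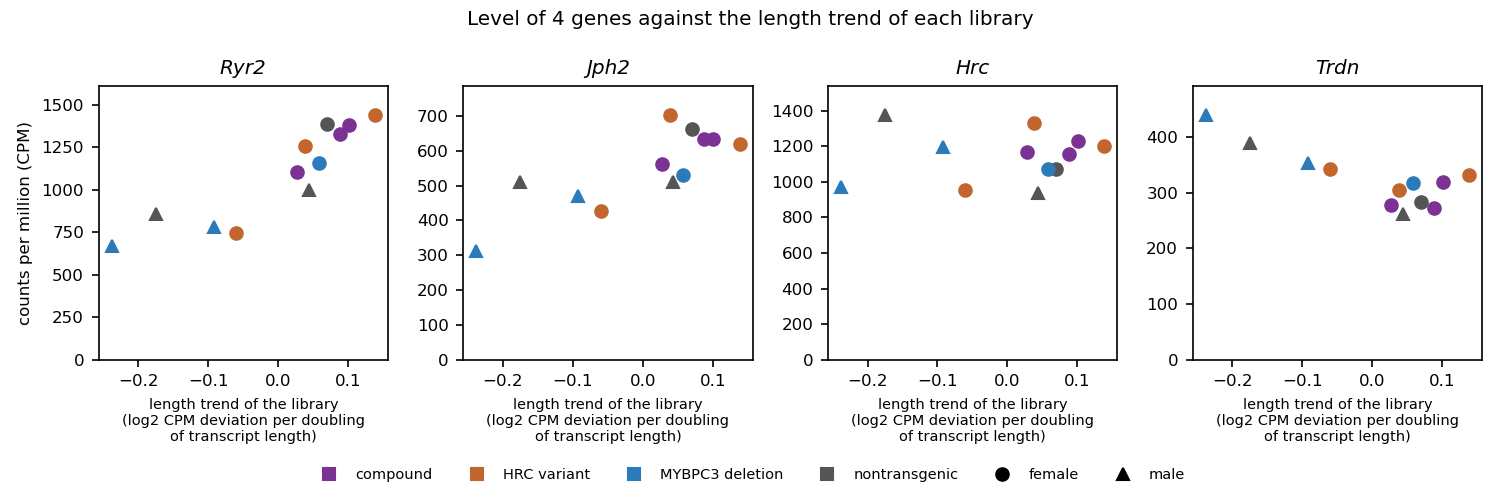
CPM of Ryr2, Jph2, Hrc and Trdn in each heart against the length slope of its library (log2 CPM deviation per doubling of relative transcript length); colours are groups, circles female and triangles male hearts. Ryr2 lies at 855 CPM or below in the 4 libraries of negative slope and at 997 CPM or above in the other 8, and Hrc shows no such order.

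The members were correlated with each other over log2 CPM of the 12 hearts, which share their libraries' depth and scaling. Of 28 pairs, 8 passed a permutation test at an adjusted p under 0.05, 6 positive and 2 negative. The 6 positive pairs are all those among Ryr2, Asph, Jph1 and Jph2. Asph and Jph1 had r = 0.93 (rho = 0.88; permutation p = 4e-05 for r, adjusted p for r and rho = 0.00056 and 0.0049; r = 0.87 without the 2 hearts farthest from the median of Asph). Ryr2 had r = 0.91 with Jph2 (rho = 0.87; permutation p = 3e-05 for r, adjusted p for r and rho = 0.00056 and 0.00532; r = 0.88 without the 2 farthest hearts) and r = 0.90 with Jph1 (rho = 0.92; permutation p = 0.0001 for r, adjusted p for r and rho = 0.000933 and 0.0014; r = 0.86). The remaining 3 pairs had r between 0.78 and 0.83, with Spearman's rho for Asph and Jph2 not past the threshold (rho = 0.68, adjusted permutation p = 0.0862).

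The negative pairs were Trdn with Jph2 (r = -0.70, permutation p = 0.0108, adjusted permutation p = 0.0412; rho = -0.56, adjusted p = 0.223) and Fkbp1b with Jph2 (r = -0.70, permutation p = 0.0118, adjusted permutation p = 0.0412; rho = -0.49, adjusted p = 0.255). Without the 2 farthest hearts r was -0.39 and -0.37, so that both rest on those hearts. Hrc formed none of the 8 pairs. Its largest correlation was with Fkbp1b (r = -0.56, adjusted permutation p = 0.107), followed by Jph2 (r = 0.55, adjusted permutation p = 0.107), and its r with Trdn was 0.07.

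Residuals from the group means gave r = 0.88 for Ryr2 and Jph2, 0.93 for Ryr2 and Jph1, 0.90 for Asph and Ryr2 and 0.99 for Asph and Jph1, which passed an exact permutation within groups (adjusted p = 0.0432, 0.0144, 0.0144 and 0.0144). With the length trend removed, r was 0.89 for Ryr2 and Jph2, 0.84 for Ryr2 and Jph1, 0.79 for Asph and Ryr2 and 0.92 for Asph and Jph1. On that scale Hrc correlated with Ryr2 (r = 0.75, adjusted permutation p = 0.0227) and with Jph2 (r = 0.75, adjusted permutation p = 0.0227). Neither pair passed on the unadjusted scale, and within groups these pairs had r = 0.71 and 0.74, with exact permutation p-values, adjusted over 28 pairs, of 0.259 and 0.149.

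**Figure D5:**
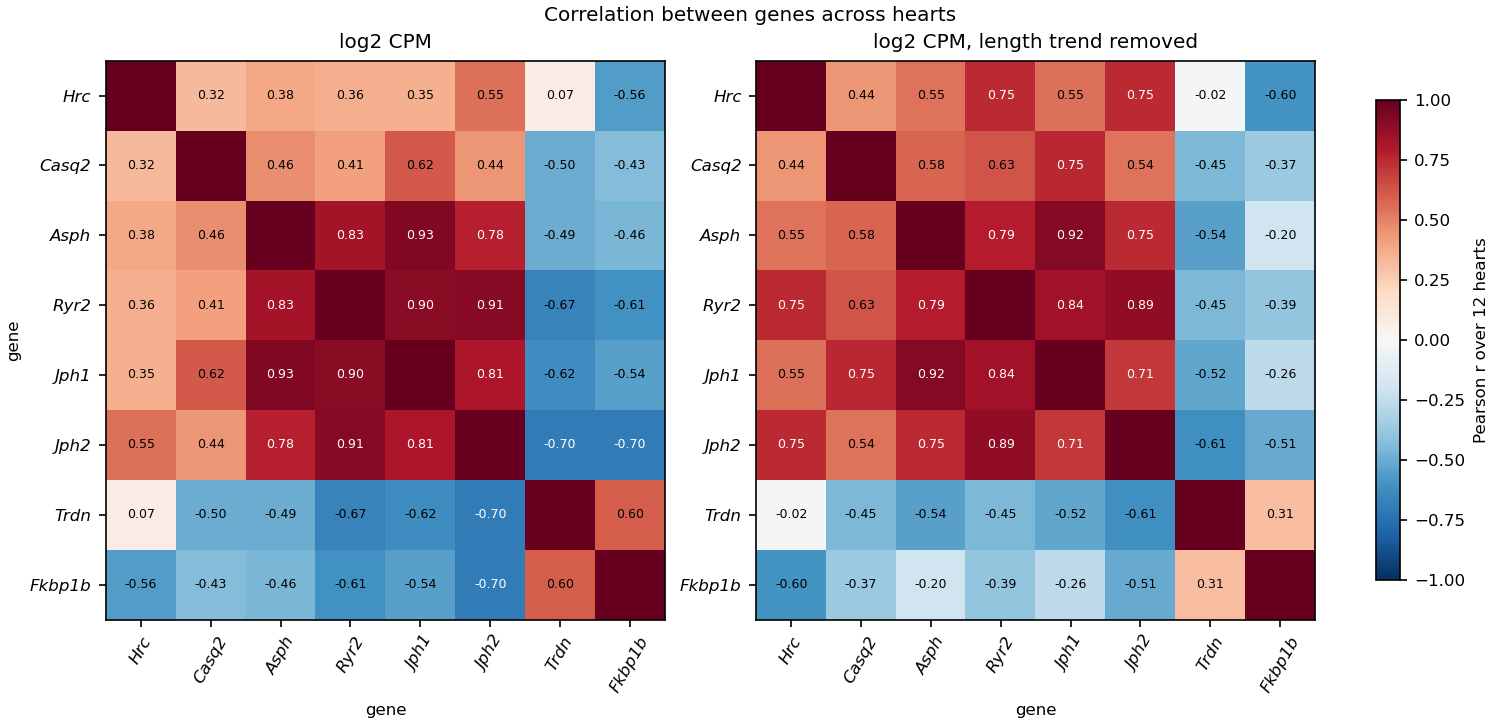
Pearson r between the 8 genes over 12 hearts, on log2 CPM (left) and after the length trend of each library was removed (right); red is positive and blue negative. Asph, Ryr2, Jph1 and Jph2 form a block of positive values in both panels, and the r of Hrc with Ryr2 is 0.36 at left and 0.75 at right.

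Among 11865 other genes, those most like Hrc across the 12 hearts were Trap1 (r = 0.93), which encodes a mitochondrial chaperone, Pigw (r = 0.92), Bag3 (r = 0.90), which encodes a co-chaperone of muscle, Ccdc117 (r = 0.89) and Bzw2 (r = 0.89). The other members were left out of this search and could not be among them. Among those most like Ryr2 were Strn (r = 0.97) and Tsc1 (r = 0.97), both of more than average length, at 2.36 and 2.71 times the median relative length.

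Of the 6 close relatives of the members, 4 passed the filter on low counts and Ryr1 and Jph3 did not. Casq1, the calsequestrin of fast skeletal muscle, had 15.4, 9.60 and 8.11 CPM in compound hearts, 51.8, 32.3 and 73.3 in HRC variant hearts, 24.4, 23.4 and 24.5 in MYBPC3 deletion hearts, and 13.8, 44.5 and 58.4 in nontransgenic hearts. Compound hearts were below all HRC variant hearts, with a log2 difference of -2.25 (SE 0.48; edgeR adjusted p = 0.514, DESeq2 adjusted p = 0.0043). They were also below all MYBPC3 deletion hearts (log2 difference -1.51, SE 0.58; edgeR adjusted p = 0.862, DESeq2 adjusted p = 0.549), and overlapped with nontransgenic hearts (log2 difference -2.12, SE 0.54; edgeR adjusted p = 0.614, DESeq2 adjusted p = 0.0878). Carriers of the deletion differed from non-carriers by -1.43 (SE 0.34; edgeR adjusted p = 0.653, DESeq2 adjusted p = 0.0266). The summed level of the 8 skeletal muscle markers found of a list of 9, of which Casq1 is one and Acta1 the most abundant, was 168 to 259 CPM in compound hearts, 242 to 454 in HRC variant hearts, 192 to 703 in MYBPC3 deletion hearts and 440 to 835 in nontransgenic hearts. Of these markers, Myh1 and Myh2 had 0.297 and 0.111 CPM or less in every heart, and their part in this difference was not tested. Ryr3 had 1.33 to 1.51 CPM in compound hearts, 1.83 to 5.44 in HRC variant hearts, 2.41 to 2.78 in MYBPC3 deletion hearts and 3.40 to 10.4 in nontransgenic hearts. Compound hearts were below all hearts of the other 3 groups, and MYBPC3 deletion hearts below all nontransgenic hearts. The log2 difference from nontransgenic hearts was -1.81 (SE 0.55; adjusted p = 0.630) in compound hearts and -1.14 (SE 0.45; adjusted p = 0.551) in MYBPC3 deletion hearts. Compound differed from HRC variant hearts by -1.28 (SE 0.46; adjusted p = 0.750). Jph4 had 2.22 CPM or less in every heart, and Fkbp1a had 214 to 312 CPM.

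The other proteins of the junction and the calcium cycle were read from 2 lists, of 22 channel regulators and dyad proteins and of 16 genes, 15 of them measured, for calcium uptake and flux across the cell membrane. None of either list passed edgeR or DESeq2 in any of the 9 comparisons, and per comparison 0 to 5 genes of the first list and 0 to 3 of the second had an unadjusted p under 0.05 in edgeR. The highest share of the first list was 22.7%, for females against males, beside 14.3% of all genes. That of the second was 20%, for carriers of the deletion against non-carriers, beside 6.18% of all genes. In the first list, the smallest p-values belonged to Sypl2, which encodes a triad membrane protein (log2 -1.25, SE 0.63; adjusted p = 0.810), and Fam20c, the secretory kinase that phosphorylates HRC (log2 -0.27, SE 0.17; adjusted p = 0.871), for compound against nontransgenic hearts. For the HRC variant they were Calr (log2 -0.31, SE 0.15; adjusted p = 0.811) and Srl (log2 -0.37, SE 0.21; adjusted p = 0.868), which encode calreticulin and sarcalumenin, calcium binders of the reticulum. For the MYBPC3 deletion they were Speg (log2 -0.37, SE 0.17; adjusted p = 0.609), a muscle kinase, and the calmodulin gene Calm2 (log2 0.24, SE 0.12; adjusted p = 0.646).

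In the uptake and flux list, Atp2b4, a calcium pump of the cell membrane, had a log2 difference from nontransgenic hearts of -0.54 (SE 0.20; adjusted p = 0.667) in compound hearts, -0.31 (SE 0.20; adjusted p = 0.898) with the HRC variant and -0.31 (SE 0.16; adjusted p = 0.649) with the MYBPC3 deletion. Pln, the inhibitor of the reticulum's calcium pump, had 0.43 (SE 0.21; adjusted p = 0.809) in compound hearts. Slc8a1, the sodium-calcium exchanger, had -0.42 (SE 0.28; adjusted p = 0.907) with the HRC variant, and Itpr1, a receptor channel for inositol trisphosphate, -0.40 (SE 0.16; adjusted p = 0.570) with the deletion. Between females and males, Atp2a2, the calcium pump itself, had a log2 difference of 0.66 (SE 0.21; adjusted p = 0.312), and Speg and Ppp1r3a of the first list had 0.54 (SE 0.18) and 0.77 (SE 0.25), both at an adjusted p of 0.312. The list median in females against males was 0.18, beside -0.01 over all genes.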

How the data were processed

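The authors deposited 1 table with an expected count and a TPM value per gene and sample, together with log2 fold changes and q-values of their own group comparisons, as the column names of the deposited file state. HISAT, Bowtie2, DESeq2 and GRCm38.p6 are listed per the submitters' processing notes, without their roles; which tool counted, and with what strand setting, the sources do not say. RNA was selected with oligo(dT), per the labels' protocols. Of the deposited counts, 94.3% were exactly whole (tolerance 0), and all were rounded. Groups and sex came from the labels. edgeR 4.0.16 in R 4.3.3 (minimum count 10, TMM scaling) kept 13849 of 17379 genes, and 1 robust quasi-likelihood model with group and sex was fitted to all 12 samples (7 residual degrees of freedom, biological coefficient of variation 21.5%). An adjusted p without a tool's name is edgeR's, with Benjamini-Hochberg over all tested genes; called means under 0.05. Correlations used log2 CPM (prior count 2) and 100000 permutations with scipy and numpy. DESeq2 1.42.0 and limma-voom 3.58.1 were alternatives, as were other scalings, filters, terms and samples. The test was checked on simulated counts. No 2 libraries of a group were alike within sampling noise. Members, lists and tests were chosen with earlier results of these data known. The named genes are the 8 members, Mybpc3, the members' relatives, the listed genes with the 2 smallest p-values per comparison (given for comparisons with nontransgenic hearts and, in part, for sex), and the genes most like Hrc and Ryr2. One gene that this rule names is not reported here. Coordinates are those of the deposited table, gene symbols too. Intervals and counts rest on 12 libraries of 15615182 to 20581197 reads.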

Additional observations from a re-analysis of the deposited data

Results flagged for a closer look

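Trdn was singled out because hearts with the MYBPC3 deletion lay on opposite sides of the mean of their comparison group, with and without the HRC variant. These means are not adjusted for sex, and single hearts overlapped. Nontransgenic replicate 1 (389 CPM) was above MYBPC3 deletion replicates 1 and 3, and compound replicate 3 was above HRC variant replicate 3 (306 CPM). All 3 compound hearts (273, 278 and 319.9 CPM) were below the mean of the HRC variant hearts (327 CPM), and all 3 MYBPC3 deletion hearts (354, 439.7 and 319 CPM) were above the mean of the nontransgenic hearts (311 CPM). The test of this difference, the interaction, gave a log2 value of -0.42 (SE 0.22), which did not pass (edgeR adjusted p = 0.634, DESeq2 adjusted p = 0.488). Without nontransgenic replicate 2 the interaction was -0.25, and the difference between MYBPC3 deletion and nontransgenic hearts was 0.08, against 0.25 with all hearts. The highest Trdn heart, MYBPC3 deletion replicate 2, was also the library with the most negative length slope (-0.24), whose part in the result was not tested beyond a fit with the length trend removed, where the interaction was -0.48 (SE 0.25; edgeR adjusted p = 0.596).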

How the results depend on the processing

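No member was called in any comparison under any alternative: other tools (DESeq2, limma-voom), RLE scaling, no filter or a stricter one, no sex term, females only, only the groups compared, the length trend removed, the atrial level as a term, the replicate blocks, each heart left out, and 2 sets of libraries left out together, the last chosen after seeing the data. Of 1816 fitted member values, 1621 had the sign of the reported value, 195 the other sign, and 64 moved by more than its SE.

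Counts over all genes depended on the setting. DESeq2 called 38, 25, 76, 6, 43, 16, 13, 50 and 54 genes and edgeR 0 in 8 comparisons and 8 in the last, in the order compound, HRC variant and MYBPC3 deletion against nontransgenic, compound against MYBPC3 deletion and against HRC variant, HRC variant carriers, deletion carriers, interaction, and female against male. Limma-voom called 5 in the last. Fits of only the groups compared called 15 (compound against nontransgenic), 1 (MYBPC3 deletion against nontransgenic) and 57 (compound against MYBPC3 deletion), and no filter gave 1 for deletion carriers. Leaving out 1 heart gave 0 to 3, 0 to 8, 0, 0, 0 to 13, 0 to 38, 0 to 3, 0 to 5 and 4 to 37 in the order above. Leaving out HRC variant replicate 1 gave 8, 4, 38, 3 and 5 (HRC variant against nontransgenic, compound against HRC variant, both carrier comparisons, interaction), and leaving out HRC variant replicate 3 gave 3, 13 and 2 (compound against nontransgenic and against HRC variant, deletion carriers). Leaving out nontransgenic replicate 1 gave 1 in 2 comparisons (compound against nontransgenic, deletion carriers), and compound replicate 3 gave 1 (HRC variant against nontransgenic). For female against male, leaving out nontransgenic replicate 2 gave 37 and each of 8 other hearts 4 or 5. Without the 4 libraries of negative length slope the counts were 166, 140, 3, 70, 63, 385, 24, 6 and 24, with 1 heart left in the MYBPC3 deletion group, which is assumed to vary like the others. Without nontransgenic replicate 1 and MYBPC3 deletion replicate 2 they were 1 for deletion carriers and 3 for female against male. The cause was not tested.

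No pairing by replicate number was seen: same-numbered samples had deviations correlated at -0.0025 on average, and samples with different numbers at 0.0027. Of 12 samples, 2 correlated best with their own number. These values cannot exclude a pairing, and the labels give none. With the replicate block and sex, 1 gene was called in the interaction and 1 in female against male; with the replicate block and no sex term the counts were 2, 3, 3, 2 and 1 (compound and HRC variant against nontransgenic, compound against MYBPC3 deletion, HRC variant carriers, interaction), and 0 members in each.

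Of 28 correlations, 8 passed as reported, 9 with the length trend removed, 4 as residuals from group means, 2 as such residuals with the trend removed and 0 as residuals from group and sex, where only 144 arrangements exist. The planned change of length from the deposited table to RefSeq was not run, since the table gives no transcript length. The values of Fkbp1b rest on 13 to 51 reads per heart.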
